A study of Mus musculus with 12 samples.

Results

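The genes described here encode the organic ion carriers and the ATP-binding cassette (ABC) transporters of mouse liver. They were chosen by family name: every protein-coding Slco, Slc22a and Abca to Abcg gene with at least 10 counts in at least 6 of 12 libraries, leaving out Slco1b2, Abcb11, Abca1, Abcg5 and Abcg8. Of 91 genes with such names, 56 met the rule. These were 21 in the uptake families (6 Slco and 15 Slc22a) and 35 in the ABC families, 11 of them classed as plasma membrane pumps. A further 28 fell under the count limit, 5 were left out by name and 2 were not protein-coding. The table held 56205 genes in all.

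RNA was measured by poly(A) RNA-seq in whole liver of 12 ob/ob mice, 1 library per mouse. All 12 are ob/ob (B6.Cg-Lep ob/J in the study's methods) and therefore lack leptin and become obese; per the labels they were male, and the study's methods describe young adults. Of these, 6 ate chow (the FLO group) and 6 ate chow and received ethionine, the ethyl analogue of methionine (the fibrotic group). The labels disagree on the treatment, one giving 0.165% DL-ethionine in the water over 2 weeks and another an injection of 0.15%, and the study's methods state a shorter time. Chow, obesity and leptin loss are common to both groups. The name fibrotic is that of the labels, and Col1a1, a main chain of fibrillar collagen, was not called between groups (log2 fold change -0.22, SE 0.33, edgeR adjusted p = 0.611).

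Hepatocytes take drugs, hormones, bile acids and organic ions from the blood through carriers of the Slco (OATP) and Slc22a (OCT, OCTN and OAT) families on their sinusoidal face. They pass the same compounds or their conjugates into bile through ABC pumps of the canalicular face, or back into blood through ABC pumps of the sinusoidal face. Other ABC proteins move lipids, peroxisomal substrates or mitochondrial metabolites, and the Abce and Abcf proteins transport nothing and act in translation. Many of the drug carriers are controlled by the nuclear receptors Nr1i3 (CAR), Nr1i2 (PXR) and Nr1h4 (FXR) and by the factors Ahr and Nfe2l2 (Nrf2).

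Fibrotic libraries totalled between 17815568 and 20352675 counts and FLO libraries between 18275320 and 24814263, and depth did not differ beyond their spread (exact permutation p = 0.115, two-sided). TMM factors, which correct for RNA composition, averaged 1.07 in fibrotic and 0.941 in FLO (exact permutation p = 0.00216, the smallest possible here). FLO replicate 3 held 3773 counts of Xist and 4 of the Y-linked gene Ddx3y, where the other 11 libraries held 0 to 4 and 556 to 977, which goes against its male label; results that change without this library are marked below. Summed markers of hepatocytes ranged from 48088 to 81825 CPM (counts scaled to a common library size) in fibrotic and from 70889 to 84193 in FLO, with 1 of 5 tested markers called higher and 2 lower. Markers of cholangiocytes were called higher for 3 of 5 genes (80.6 to 273 against 47.0 to 87.9 CPM), of Kupffer cells for 4 of 5 (171 to 331 against 121 to 157 CPM), of macrophages for 2 of 5 (79.8 to 185 against 63.8 to 99.2 CPM), of stellate cells for 1 of 5 (187 to 303 against 167 to 252 CPM) and of endothelial cells for 0 of 5 (97.7 to 135 against 127 to 156 CPM). Lymphocyte markers summed to 1.59 to 3.90 CPM over all libraries, and neither of the 2 that could be tested was called. Of all genes tested 15.9% were called higher and 14.0% lower. The part of these marker shifts in the results below was not tested. In bulk tissue fewer cells of a type and less RNA per cell cannot be told apart.

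Transporters changed in both directions. Calls needed an edgeR adjusted p no higher than 0.01 and a log2 fold change beyond 0.5 either way, the limits of the study's methods. Of the 56 members 28 were called (50%), where 29.9% of the 13416 genes tested were. There were 12 members called higher (background 15.9%) and 16 called lower (background 14.0%). The 12 include Slc22a12, which met the count limit through the fibrotic libraries. CPM did not overlap between the 6 fibrotic and the 6 FLO libraries for 20 of the 56 members, 15 lower and 5 higher, where 30.4% of all genes tested did not overlap. That share of all genes was not split by direction, so the 15 and 5 are counts only. The median log2 fold change of the members was 0.08 and that of all genes tested was 0.03. Scaling by total counts moved the median of all genes to 0.20 and their calls from 2139 higher and 1873 lower to 3137 and 1233; 7 uptake and 7 ABC members were then called higher, and 5 and 8 lower.

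**Figure D1:**
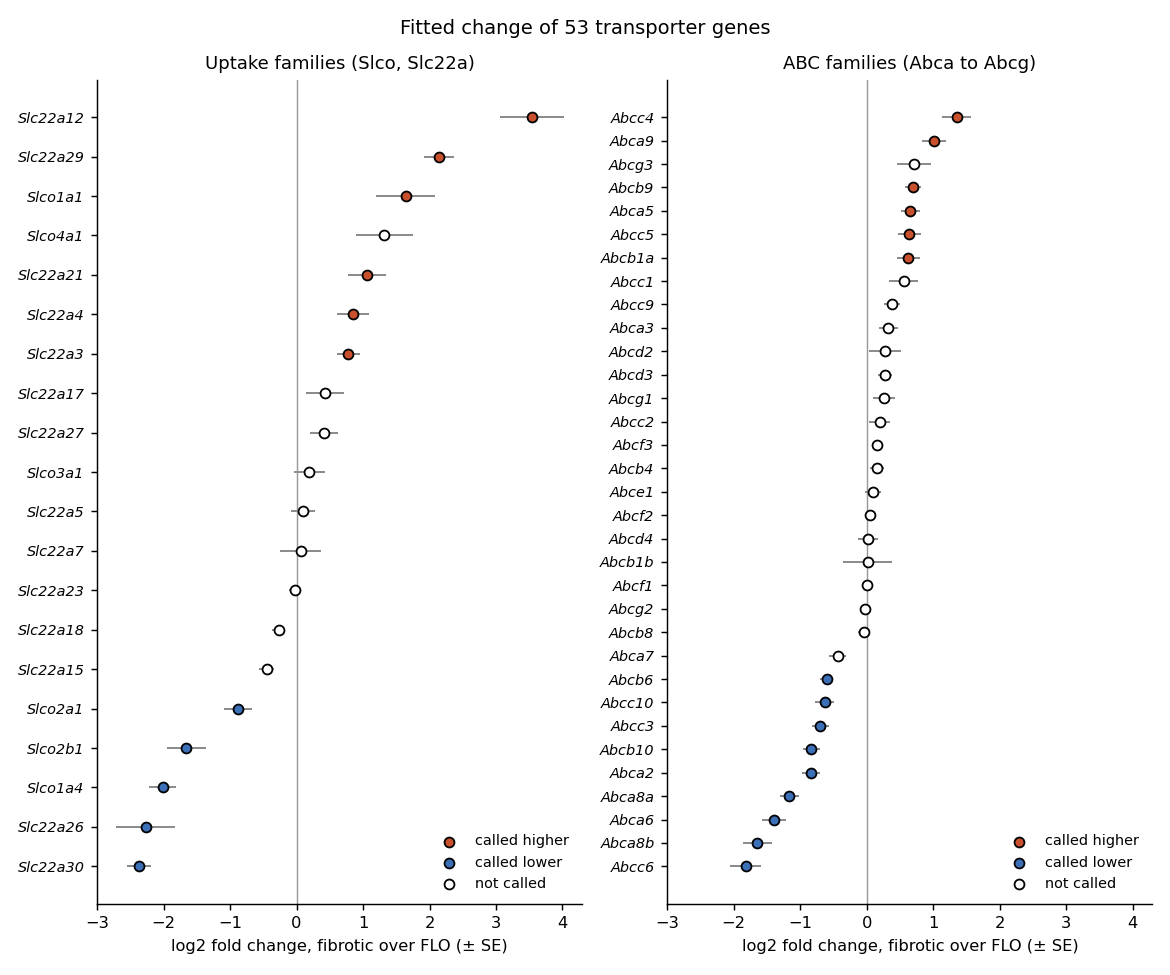
Fitted log2 fold change of fibrotic over FLO (x axis, ± SE, 6 libraries a group) for 53 of the 56 members (y axis), uptake families on the left and ABC families on the right; filled points were called. Both panels hold members on either side of 0, from -2.37 (Slc22a30) to 3.54 (Slc22a12) on the left and from -1.82 (Abcc6) to 1.36 (Abcc4) on the right. Slc22a12 met the count limit through the fibrotic libraries, so its point is a description only.

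In the uptake families 6 of 21 members were called higher and 6 lower, with a median log2 fold change of 0.10. In the ABC families 6 of 35 were called higher and 10 lower, with a median of 0.05. The background shares were 15.9% higher and 14.0% lower. Without FLO replicate 3, fewer members of both sides were called higher and the uptake median changed sign, as given below. Fewer uptake members were also called higher without some other single libraries. The uptake members Slc22a12 and Slco4a1 met the count limit through the fibrotic libraries, and with 10 counts required in every library 5 of 19 uptake members were called higher and 6 lower, and 6 and 10 of 34 ABC members. The summed level of the 21 uptake members ran from 727 to 1049 CPM (median 962) in fibrotic and from 1321 to 1571 CPM (median 1438) in FLO libraries, with no overlap. The 35 ABC members summed to 3146 to 3716 CPM (median 3393) in fibrotic and 3133 to 4149 CPM (median 3569) in FLO, with overlap. Abcd3, a peroxisomal member named after its values were seen, was the largest part of the ABC sum, 21.2% in FLO and 27.0% in fibrotic. It was not called (log2 fold change 0.27). Abcc3 made up 14.5% in FLO and 9.39% in fibrotic. The ABC sum is therefore not a level of efflux pumps alone. These sums describe the libraries and were not tested. Slco2b1 made up 15.8% of the uptake sum in FLO and 7.74% in fibrotic (means of 228 and 72.3 CPM). The uptake sum also holds members not reported here, so its fall is not that of Slco2b1 alone.

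**Figure D2:**
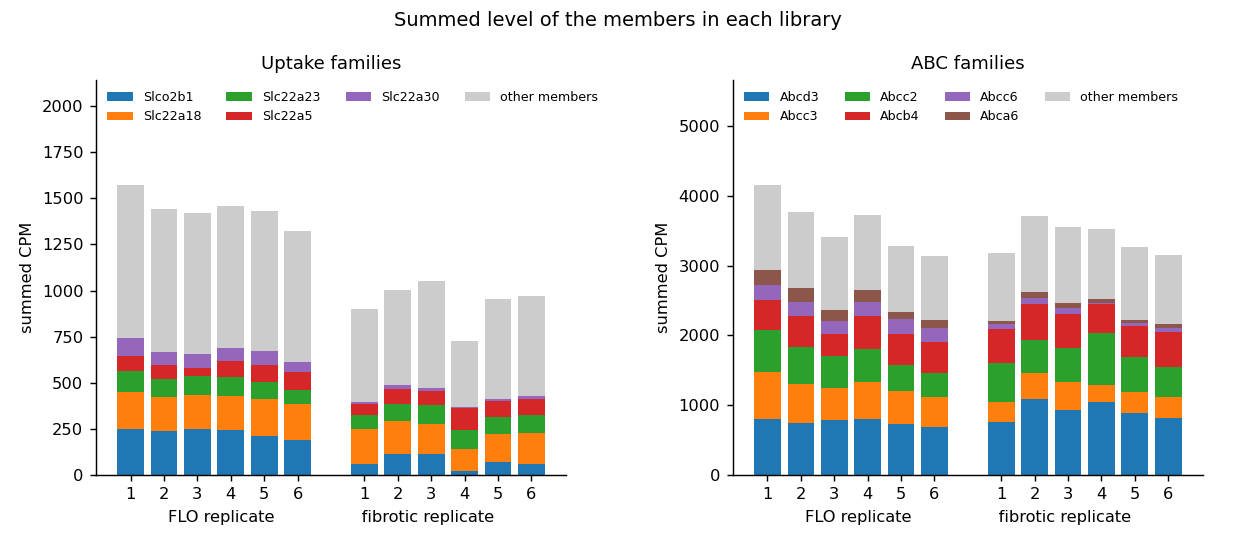
Summed CPM (y axis) of the uptake members (left) and ABC members (right) in each of the 12 libraries (x axis), stacked for some members, with all the others in grey. The fibrotic uptake bars, at 727 to 1049, all end below the lowest FLO bar at 1321, while the ABC bars of both groups share the range from 3146 to 3716.

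The sums and shares above add CPM without regard to gene length, so long genes weigh more in them. Otherwise levels between genes were compared per kilobase of exon. On that scale the mean FLO level was 91.0 CPM per kilobase for Abcc3, 54.6 for Abcc2, 45.5 for Abcb4, 38.3 for Slco2b1, 34.9 for Abcc6 and 26.0 for Slc22a5. Slco1a4 (5.66), Abcc4 (6.50) and Abcb1a (3.35) stood lower, and Slco1a1 (0.2) and Slc22a12 (0.168) were near the bottom.

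Of the 6 Slco members, 3 were called lower (background 14.0%) and 1 higher (background 15.9%). Slco1a4 (Oatp1a4), an uptake carrier of bile acids, steroid conjugates and cardiac glycosides, ranged from 4.95 to 11.3 CPM (median 10.3) in fibrotic and from 27.7 to 47.6 CPM (median 33.9) in FLO. All 6 fibrotic libraries lay below all FLO libraries, a 4.04-fold lower level (log2 fold change -2.01, SE 0.20, edgeR adjusted p = 1.90e-06). Slco2b1 (Oatp2b1), a carrier of steroid sulfates and statins, ranged from 22.5 to 112 CPM (median 65.2) in fibrotic and from 188 to 248 CPM (median 238) in FLO. The groups did not overlap, fibrotic replicate 4 being lowest, and the level was 3.15-fold lower (log2 fold change -1.66, SE 0.30, edgeR adjusted p = 0.000418). Slco2a1, the prostaglandin transporter, also fell (log2 fold change -0.88), with overlap between groups, and was not called when scaled by total counts (-0.69, edgeR adjusted p = 0.0133) or without a low-count filter (-0.89, edgeR adjusted p = 0.0110).

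Slco1a1 (Oatp1a1), a carrier of organic anions known to be higher in male than female mouse liver, ranged from 0.655 to 5.06 CPM (median 3.52) in fibrotic and from 0.539 to 2.61 CPM (median 0.801) in FLO. In 5 fibrotic libraries the level was above every FLO library, while fibrotic replicate 4 lay among the FLO libraries. The fit gave a 3.13-fold higher level (log2 fold change 1.65, SE 0.44, edgeR adjusted p = 0.0062), and the call was lost without fibrotic replicate 1, 2, 3 or 6 or FLO replicate 1, 2, 3, 4 or 6 (edgeR adjusted p 0.0110 to 0.0168). In FLO replicate 3 its level was 0.856 CPM, between those of other FLO libraries. Among fixed lists of sex-biased liver genes, 2 of 5 male-biased and 2 of 5 female-biased genes were called higher, and 1 of 5 in each list was called lower; the summed level of the male-biased genes was 1006 to 2035 CPM in fibrotic and 652 to 2743 CPM in FLO, and that of the female-biased genes 1400 to 3476 CPM against 376 to 1181 CPM. Of all genes tested 15.9% were called higher and 14.0% lower. The sums of 652 and 1181 CPM were both those of FLO replicate 3, whose sex-linked counts go against its label. The part of the sex-biased genes in the change of Slco1a1 was not tested. Slco4a1, a thyroid hormone carrier, was at 0.503 to 1.59 CPM (median 0.864) in fibrotic and 0.0574 to 0.651 CPM (median 0.341) in FLO and was not called (log2 fold change 1.32, SE 0.43, edgeR adjusted p = 0.0169). The remaining Slco member had a log2 fold change of 0.19 and was not called.

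Slc22a3 (Oct3), an organic cation carrier that takes up monoamines, rose (log2 fold change 0.78), with overlap between groups. Slc22a2 (Oct2), the cation carrier of the kidney, lay under the count limit and was at 0 counts in every FLO library and at 0.252 to 1.16 CPM (median 0.719) in fibrotic. Against the highest FLO value that 3 counts in a library would give (0.178 CPM), the fibrotic mean was at least 3.82-fold higher.

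Of the carnitine and ergothioneine carriers, Slc22a21 (Octn3) and Slc22a4 (Octn1) were called higher and Slc22a5 (Octn2), the main carnitine carrier, was not called. Slc22a21 ranged from 0.808 to 2.23 CPM (median 1.83) in fibrotic and from 0.490 to 1.13 CPM (median 0.807) in FLO. The groups overlapped (log2 fold change 1.06, SE 0.28, edgeR adjusted p = 0.0056), and the call was lost without fibrotic replicate 1, 2, 5 or 6 or FLO replicate 3, 4 or 6 (edgeR adjusted p 0.0107 to 0.0158). Slc22a4 had a log2 fold change of 0.85 and lost its call without fibrotic replicate 1, 2, 3, 5 or 6 or FLO replicate 2, 3, 5 or 6 (edgeR adjusted p 0.0124 to 0.0189). Slc22a5 ranged from 56.5 to 119 CPM (median 84.3) in fibrotic and from 46.0 to 94.9 CPM (median 84.7) in FLO, with overlap (log2 fold change 0.10, SE 0.18, edgeR adjusted p = 0.668). Slc22a21 and Slc22a5 shared 21.4% and 25.6% of their 51-base stretches of transcript with each other, so reads could be split between them.

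Among the organic anion carriers some rose and others fell. Slc22a12 (Urat1), the urate carrier of the kidney, ranged from 1.94 to 8.52 CPM (median 3.45) in fibrotic and from 0.147 to 1.15 CPM (median 0.230) in FLO. The groups did not overlap, FLO replicate 1 standing above the other FLO libraries, and the fitted log2 fold change was 3.54 (SE 0.48), or 4.25 without FLO replicate 1. Of the 7 libraries in which it reached 10 counts 6 were fibrotic, so it met the count limit through the group where it was higher, and its difference is given as a description only. The kidney markers Umod, Slc34a1 and Lrp2 summed to at most 0.679 CPM in any library and Umod was at most 0.0509 CPM. Slc22a7 (Oat2), a hepatic carrier of nucleotides and organic anions, ranged from 4.54 to 15.1 CPM (median 7.86) in fibrotic and from 3.98 to 13.4 CPM (median 8.54) in FLO, with overlap (log2 fold change 0.06, SE 0.31, edgeR adjusted p = 0.879).

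Slc22a26 to Slc22a30 form a run of rodent organic anion carrier genes on chromosome 19, and they did not move together. Slc22a30 ranged from 8.38 to 19.1 CPM (median 14.8) in fibrotic and from 56.2 to 101 CPM (median 72.8) in FLO. All fibrotic libraries lay below all FLO libraries, 5.17-fold lower (log2 fold change -2.37, SE 0.18, edgeR adjusted p = 9.44e-08). Slc22a26 ranged from 0.554 to 1.65 CPM (median 1.01) in fibrotic and from 2.37 to 12.7 CPM (median 3.67) in FLO. The groups did not overlap, and the level was 4.83-fold lower (log2 fold change -2.27, SE 0.44, edgeR adjusted p = 0.000616). The highest value was that of FLO replicate 3, the next in FLO being 5.30 CPM, so the size of the fall rests in part on that library. Over the 19 alternatives the log2 fold change of Slc22a26 ran from -2.44 to -1.75 and the call was kept. Slc22a29 ranged from 21.0 to 39.5 CPM (median 30.3) in fibrotic and from 2.72 to 8.97 CPM (median 7.41) in FLO. All fibrotic libraries lay above all FLO libraries, 4.43-fold higher (log2 fold change 2.15, SE 0.23, edgeR adjusted p = 3.30e-06). Slc22a27, named as a neighbour after its values were seen, was not called (log2 fold change 0.42, SE 0.21, edgeR adjusted p = 0.110). Slc22a28, under the count limit, totalled 2 counts over the fibrotic libraries and 91 over the FLO libraries. Transcripts of Slc22a30 and Slc22a28 shared 30.6% and 52.7% of their 51-base stretches with each other (33.8% and 53.3% with any gene), and those of Slc22a29 and Slc22a27 22.4% and 24.6% (28.0% and 29.3% with any gene), so values of these genes are uncertain where reads were split.

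The 250 bases upstream of the start of Slc22a28, Slc22a29 and Slc22a30 are shown because they align in part while the levels went opposite ways. They are from RefSeq (GRCm38.p6, minus strand, 5′ to 3′, chr19:8131983-8132232, chr19:8218901-8219150 and chr19:8405106-8405355), and capitals mark the longest run identical in all 3.
Slc22a28: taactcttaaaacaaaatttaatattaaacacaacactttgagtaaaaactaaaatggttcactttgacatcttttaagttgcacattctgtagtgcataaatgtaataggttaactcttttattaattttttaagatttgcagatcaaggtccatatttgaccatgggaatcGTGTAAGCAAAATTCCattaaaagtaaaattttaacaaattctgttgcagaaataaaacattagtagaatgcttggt
Slc22a29: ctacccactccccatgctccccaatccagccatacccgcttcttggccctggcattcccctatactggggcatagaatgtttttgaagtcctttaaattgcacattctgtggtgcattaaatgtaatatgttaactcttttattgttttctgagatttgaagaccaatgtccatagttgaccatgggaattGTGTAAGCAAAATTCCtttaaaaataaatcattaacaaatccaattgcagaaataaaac
Slc22a30: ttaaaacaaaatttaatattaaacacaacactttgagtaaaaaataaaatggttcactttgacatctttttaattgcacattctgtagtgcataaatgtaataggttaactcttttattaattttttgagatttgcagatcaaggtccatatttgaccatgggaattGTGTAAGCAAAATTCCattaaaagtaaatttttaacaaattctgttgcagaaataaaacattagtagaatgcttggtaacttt

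The upstream sequences of Slc22a28 and Slc22a30, both lower in fibrotic liver, were 97.5% identical over 244 aligned positions. That of Slc22a29, which rose, was 85.9% identical to Slc22a30 over 184 aligned positions and 84.2% identical to Slc22a28 over 183. The bases of Slc22a29 farthest from its start lay outside these aligned stretches. The run in capitals is 16 bases long.

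**Figure D3:**
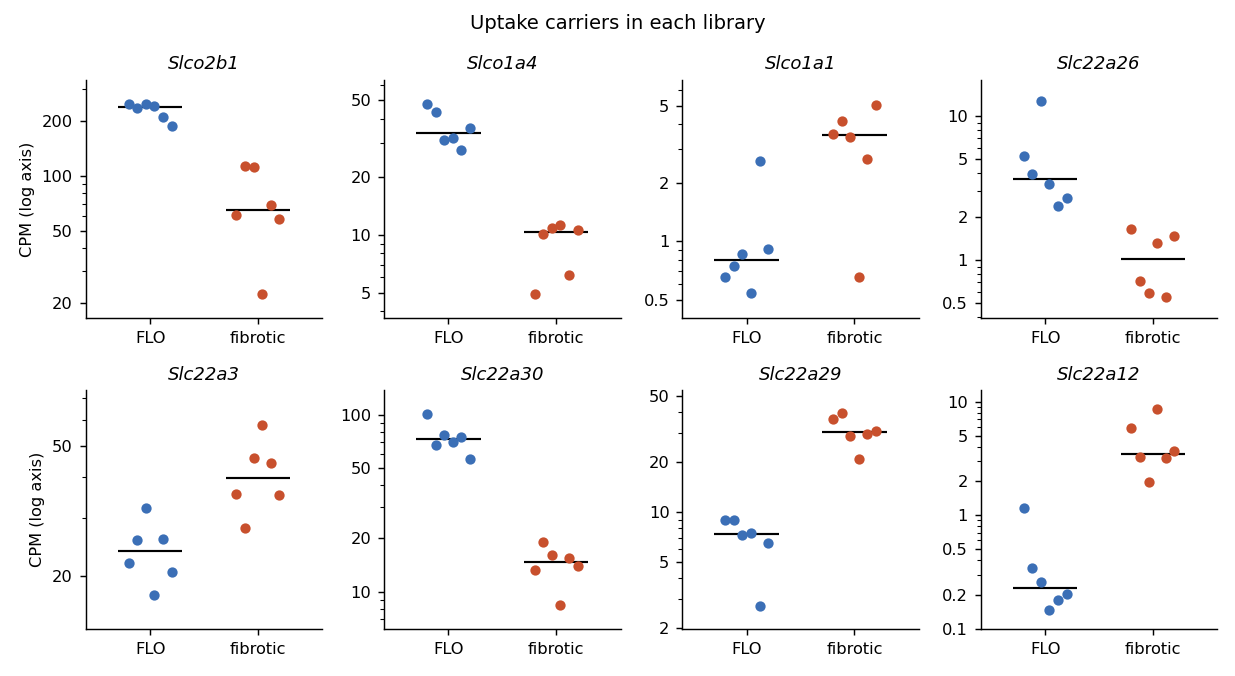
CPM on a log axis (y axis) of 8 uptake carriers in the 6 FLO (blue) and 6 fibrotic (orange) libraries, a point per library and a line at the median. Slco2b1, Slco1a4, Slc22a26 and Slc22a30 lie lower in all fibrotic libraries, Slc22a29 and Slc22a12 higher, and Slco1a1 and Slc22a3 overlap between groups. Slc22a12 met the count limit through the fibrotic libraries.

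Of the pumps of the plasma membrane, which include the phosphatidylcholine flippase Abcb4, 3 of 11 were called higher (background 15.9%) and 3 lower (background 14.0%). The higher ones were Abcc4, Abcb1a and Abcc5, and the calls of Abcb1a and Abcc5 were lost without FLO replicate 3, as given below. The median log2 fold change of the 11 was 0.16. The sinusoidal pumps moved both ways. Abcc4 (Mrp4), which returns bile acids, cyclic nucleotides and conjugates to blood, ranged from 92.2 to 123 CPM (median 105) in fibrotic and from 25.0 to 74.2 CPM (median 39.5) in FLO. All fibrotic libraries lay above all FLO libraries, 2.56-fold higher (log2 fold change 1.36, SE 0.22, edgeR adjusted p = 0.000158). Abcc3 (Mrp3), which moves glucuronides and bile acids the same way, ranged from 253 to 396 CPM (median 302) in fibrotic and from 438 to 664 CPM (median 503) in FLO. The groups did not overlap and the level was 1.63-fold lower (log2 fold change -0.70, SE 0.13, edgeR adjusted p = 0.0003). Abcc6 (Mrp6), needed for release of ATP from hepatocytes and mutated in pseudoxanthoma elasticum, ranged from 21.8 to 80.7 CPM (median 61.4) in fibrotic and from 187 to 215 CPM (median 200) in FLO. It was 3.53-fold lower with no overlap, the largest fall in the ABC families (log2 fold change -1.82, SE 0.24, edgeR adjusted p = 2.72e-05).

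None of the canalicular pumps among the members was called apart from Abcb1a. Abcc2 (Mrp2), which exports bilirubin and glutathione conjugates into bile, ranged from 428 to 744 CPM (median 499) in fibrotic and from 339 to 605 CPM (median 468) in FLO, with overlap (log2 fold change 0.19, SE 0.15, edgeR adjusted p = 0.306). Abcb4, the phosphatidylcholine flippase of the canaliculus, ranged from 409 to 523 CPM (median 489) in fibrotic and from 318 to 468 CPM (median 446) in FLO, the lowest being FLO replicate 3 (log2 fold change 0.16, SE 0.10, edgeR adjusted p = 0.211). Abcg2 (Bcrp), which exports sulfate conjugates and urate, ranged from 99.9 to 121 CPM (median 108) in fibrotic and from 101 to 123 CPM (median 111) in FLO, with overlap and a log2 fold change of -0.02 (SE 0.08, edgeR adjusted p = 0.827). Abcb1a, a P-glycoprotein of drug export, ranged from 20.4 to 35.3 CPM (median 28.7) in fibrotic and from 11.4 to 24.3 CPM (median 18.2) in FLO. The groups overlapped (log2 fold change 0.62, SE 0.17, edgeR adjusted p = 0.0074), and the call was lost without fibrotic replicate 2, 3, 4 or 5 or FLO replicate 3, 4, 5 or 6 (edgeR adjusted p 0.0112 to 0.0195).

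Abcb1a shared 16.1% of its 51-base stretches with its paralog Abcb1b, which was at 0.204 to 1.5 CPM in fibrotic and 0.556 to 1.18 CPM in FLO. Abcc5, an exporter of cyclic nucleotides, rose (log2 fold change 0.64) and lost its call without fibrotic replicate 5 or 6 or FLO replicate 3 (edgeR adjusted p 0.0116 to 0.0122). Abcc10 fell (log2 fold change -0.63) and was not called when scaled by total counts (-0.46, edgeR adjusted p = 0.0160).

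**Figure D4:**
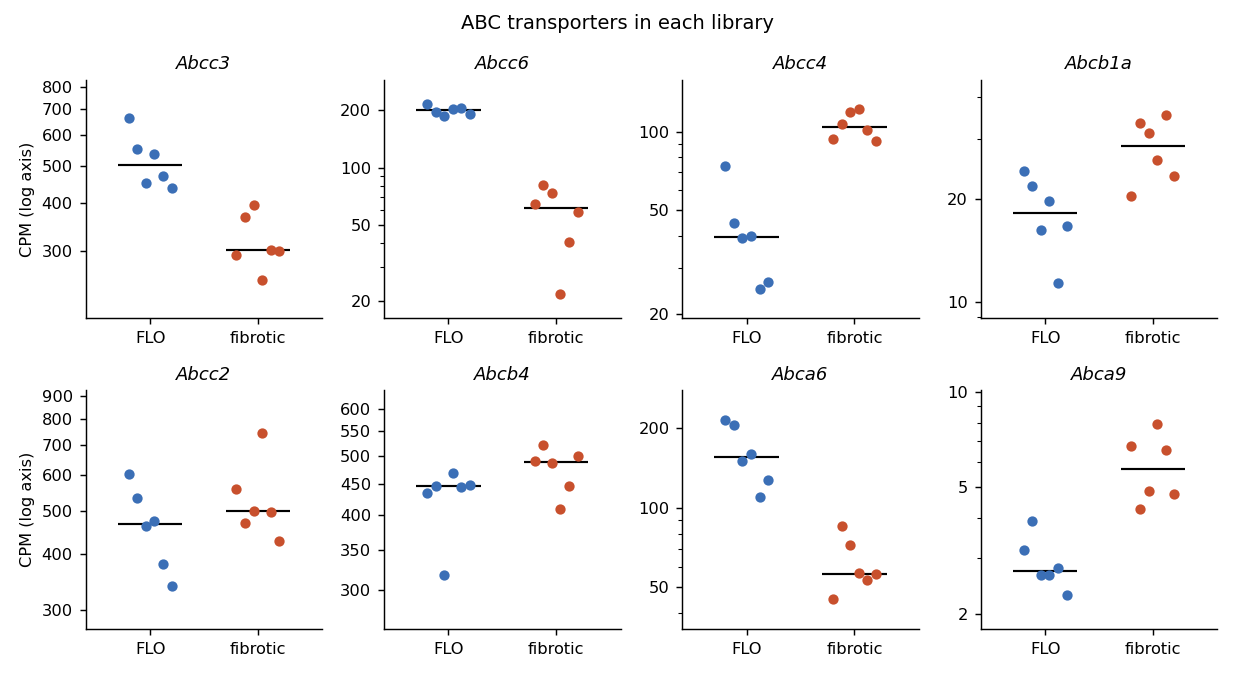
CPM on a log axis (y axis) of 8 ABC transporters in the 6 FLO (blue) and 6 fibrotic (orange) libraries, a point per library and a line at the median. Abcc3, Abcc6 and Abca6 lie lower in all fibrotic libraries and Abcc4 and Abca9 higher, while Abcb1a, Abcc2 and Abcb4 overlap between groups.

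The Abca family of lipid transporters had 4 of 8 members called lower (background 14.0%) and 2 higher (background 15.9%), with a median log2 fold change of -0.63. Abca6 ranged from 45.2 to 85.7 CPM (median 56.4) in fibrotic and from 110 to 215 CPM (median 156) in FLO. All fibrotic libraries lay below all FLO libraries, 2.62-fold lower (log2 fold change -1.39, SE 0.18, edgeR adjusted p = 1.95e-05). Abca8b ranged from 4.26 to 11.6 CPM (median 8.88) in fibrotic and from 20.8 to 39.0 CPM (median 24.5) in FLO. It was 3.13-fold lower without overlap (log2 fold change -1.65, SE 0.21, edgeR adjusted p = 2.04e-05). Abca8a (log2 fold change -1.16) and Abca2 (log2 fold change -0.84), a lipid transporter of endosomes and lysosomes, fell without overlap as well. Abca9 went the other way, from 2.29 to 3.90 CPM (median 2.72) in FLO to 4.28 to 7.91 CPM (median 5.70) in fibrotic. It was 2.02-fold higher with no overlap (log2 fold change 1.01, SE 0.18, edgeR adjusted p = 0.000255). Abca5, a lysosomal member, ranged from 9.46 to 16.3 CPM (median 12.1) in fibrotic and from 6.81 to 10.05 CPM (median 7.57) in FLO. It rose with overlap (log2 fold change 0.66, SE 0.14, edgeR adjusted p = 0.0011).

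Among intracellular ABC proteins, the 4 mitochondrial members had a median log2 fold change of -0.51, with 0 called higher (background 15.9%) and 2 lower (background 14.0%). These were Abcb10 (log2 fold change -0.83), which takes part in heme synthesis, and Abcb6 (log2 fold change -0.60), a porphyrin transporter; neither overlapped between groups. Abcb6 shared 49.9% of its 51-base stretches with the annotated gene Gm29253, so its reads are uncertain, and scaled by total counts it missed the fold limit (-0.43, edgeR adjusted p = 0.000422). The uptake member Slc22a15, named after its values were seen, passed the p limit but not the fold limit (log2 fold change -0.45, edgeR adjusted p = 0.0033).

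Abcb9, a peptide transporter of lysosomes, ranged from 9.75 to 14.8 CPM (median 11.5) in fibrotic and from 5.48 to 7.81 CPM (median 7.502) in FLO. It was 1.62-fold higher without overlap (log2 fold change 0.70, SE 0.12, edgeR adjusted p = 0.000184). The 4 soluble members of translation (Abce1 and Abcf1 to Abcf3) had log2 fold changes from 0.00 to 0.16, and 0 of 4 were called. None of the 3 Abcg members was called either. Over all families the 28 members that were not called lay between -0.45 and 1.32 on the log2 scale.

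Position was not used to choose the members. In the RefSeq gene order, 17 of the 53 members reported singly lay in 5 runs of neighbouring candidate genes with at most 1 other protein-coding gene between them, and in 3 of the 5 runs members were called in both directions. Slco1a4 fell beside Slco1a1, which rose with a call that single libraries decided, as above. Of 5 adjacent Abca genes Abca8b, Abca8a and Abca6 fell while Abca9, which lies between Abca8a and Abca6, and Abca5 rose. The run of Slc22a26, Slc22a27, Slc22a29 and Slc22a30 is described above. In the other 2 runs the called members, Slc22a21 and Slc22a4 in one and Abcb1a in the other, rose.

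**Figure D5:**
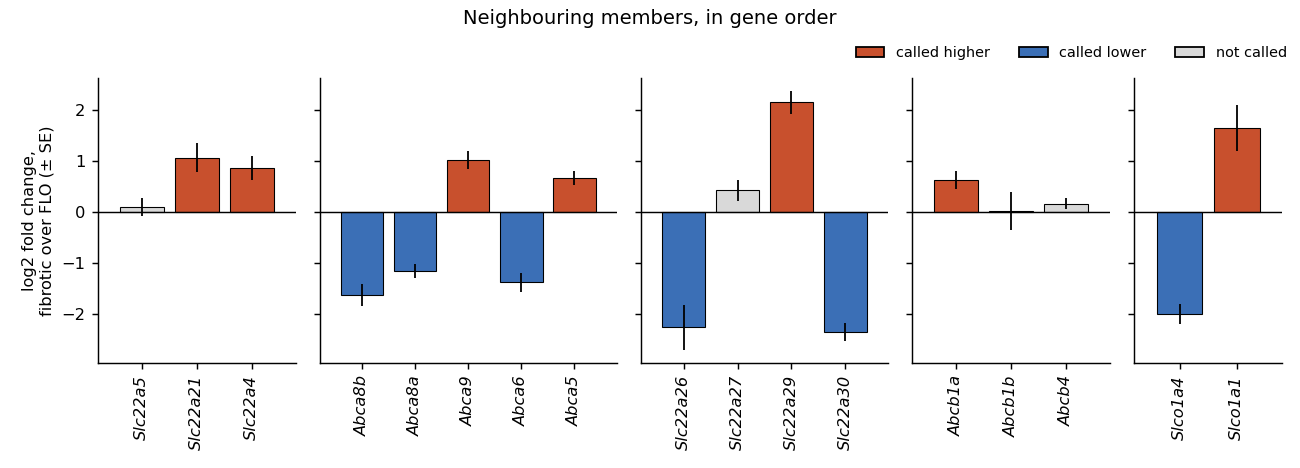
Log2 fold change of fibrotic over FLO (y axis, bars from 0, ± SE) of the 17 neighbouring members in gene order (x axis), a panel for each of the 5 runs; orange bars were called higher, blue lower and grey not called. In 3 panels, those of Abca8b to Abca5, Slc22a26 to Slc22a30 and Slco1a4 to Slco1a1, bars of both colours stand side by side.

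Libraries differed in how far the members moved. Of the 16 members called lower, 8 had their lowest fibrotic value in fibrotic replicate 4, and 12 had their highest FLO value in FLO replicate 1. Fibrotic replicate 4 also had the lowest summed uptake level (727 CPM), the lowest summed hepatocyte markers (48088 CPM), the highest summed Kupffer markers (331 CPM) and the highest TMM factor (1.201). Without it, 6 uptake members were called higher and 6 lower, and 5 and 10 ABC members. Without FLO replicate 3, 3 uptake members were called higher and 6 lower, and 4 and 10 ABC members, and the median log2 fold change of the uptake members was -0.02.

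Of the 28 genes under the count limit, 8 had no count and 20 could be fitted only without a low-count filter. In that fit 5 of the 20 were called higher (background 8.99%) and 1 lower (background 7.71%). Of these 6, the 3 nearest the limit that rose were Slc22a2 and Slc22a8, both known as kidney carriers, and Abca14, and the lower one was Slc22a28; the other 2, Slc22a13 and Slc22a14, rose as well. Slc22a8 (Oat3) was at 0.0539 to 0.889 CPM in fibrotic and 0 to 0.118 CPM in FLO, with overlap. Abca14 was at 0.456 to 2.57 CPM against 0 to 0.355 CPM. Slc22a28 was at 0 to 0.0506 CPM against 0.257 to 2.19 CPM. These levels rest on few reads, and Slc22a12 (7 libraries), Slco4a1 (8 libraries) and Abcb1b (11 libraries) were the members closest to the limit from inside.

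The related transporters left out by name also moved both ways: the bile acid and drug carrier Slco1b2 (log2 fold change -1.36) and the bile salt pump Abcb11 (-0.94) were called lower, the cholesterol exporters Abca1 (0.64) and Abcg5 (0.67) higher, and Abcg8 (0.20) was not called. In a list of 13 other transport genes of hepatocytes, 12 were tested, with 1 called lower (background 14.0%) and 2 higher (background 15.9%). The lower one was Slc47a1 (Mate1, -0.87), which exports organic cations into bile. The higher ones were Slc15a4 (0.61) and the cytoskeletal linker Ezr (1.05). Of 18 regulators of transporter genes, 3 were called higher (background 15.9%) and 1 lower (background 14.0%). The lower one was Nr1i3, the receptor CAR (log2 fold change -3.53, SE 0.37, edgeR adjusted p = 6.47e-06), and the higher ones were Nfe2l2 (1.28), Ahr (1.03) and Esrra (0.92). The regulators not called lay between -0.48 and 0.31, on both sides of 0, with Nr1i2, Nr1h4, Hnf4a and Ppara between -0.41 and -0.05. Of 9 readout genes of these regulators, 4 were called higher (background 15.9%) and 2 lower (background 14.0%). The higher ones included the Ahr target Cyp1a1 (4.69) and the Nfe2l2 target Gclc (1.95). The lower ones were the Ahr target Cyp1a2 (-1.90) and the Nfe2l2 target Nqo1 (-0.66). Cyp2b10, the readout of CAR, was not called (-0.11).

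RefSeq gave upstream sequence for 42 of the 56 members. The core antioxidant response motif TGACNNNGC, the letters bound by Nfe2l2, occurred on either strand within 250 bases upstream of 4 of the 42 (9.52%), and of 11.5% of all 27025 genes. Of those 4, Abcc4 was called higher, Abcc10 lower, and Abcc2 and Slc22a27 were not called. The core xenobiotic response motif GCGTG, bound by Ahr, occurred in 13 of the 42 (31.0%) and in 30.9% of all genes; among these 13, Abca5, Abcc4 and Slc22a4 were called higher, 0 were called lower and 10 were not called. Both shares were near those of all genes, and a match describes the letters only.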

How the data were processed

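The authors deposited 1 table of raw counts, whole numbers per Ensembl gene with no normalization, for poly(A) RNA-seq of 12 livers. The submitters' processing notes name STAR 2.7.3a and mm10. Some identifiers are newer than the annotation used here (GENCODE M21), so no gene coordinates are given beyond those of the RefSeq promoters. The study's methods name a stranded kit; whether counting used strand is not given in the sources used here. Symbols matched 51745 identifiers, and the 4460 without one held 0.0587% of counts. Group and replicate number came from sample titles. Nothing states separate cages or litters, so p-values measure the spread between these mice.

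The quasi-likelihood test of edgeR 4.0.16 (R 4.3.3, robust fit) was run on the counts with TMM scaling, filterByExpr and Benjamini-Hochberg adjustment over 13416 genes. All 56 members passed the filter. SE is the absolute log2 fold change over the square root of F. CPM uses TMM-scaled library sizes. Depth and TMM factors were tested by exact permutation (924 assignments, two-sided). Libraries of a group were compared pairwise by chi-square, the smallest per degree of freedom being 11.1, so none was counted as a duplicate. On simulated counts of this comparison (13535 genes, 192 changed genes tested) 77.6% of 2-fold and 95.7% of 4-fold changes were recovered, and 2.92% of calls were false. The simulation changed 200 genes, evenly up and down and with no shift in RNA composition, while 4012 genes were called in the data. Its shares hold for that setting only. Shared 51-base stretches were counted between GENCODE M21 transcripts. Upstream sequences were aligned with Biopython (local).

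The members, the gene lists and the rules were chosen with earlier results of these data known. Named genes are every called member, with full values for the 4 largest rises and falls in the uptake and in the ABC families and for a fixed set of hepatic transporters (Slco1a1, Slco1a4, Slco2b1, Slc22a5, Slc22a7, Abcb1a, Abcb4, Abcc2, Abcc3, Abcc4, Abcc6, Abcg2), uncalled members with an absolute log2 fold change of 1 or more, and list genes. A few genes that this rule names are not reported here, and counts, medians and sums over the members include them. Alternatives were RLE and total-count scaling, 2 other filters, DESeq2 1.42.0, limma-voom (limma 3.58.1), a replicate block, 2 other thresholds, leaving out each library, and subsets of members.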

Additional observations from a re-analysis of the deposited data

Results flagged for a closer look

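Among the members named by rule, a library's distance to its nearest neighbour, divided by the range of its group of 6, was above Dixon's critical value in 8 of 68 ratios, where chance gives about 3.4. FLO replicate 3, whose sex-linked counts go against its label, was lowest for Abcb4 (ratio 0.804), Abcb9 (0.849) and Slc22a5 (0.743). Fibrotic replicate 4 was lowest for Slc22a4 (0.69) and Slco1a1 (0.676). FLO replicate 5 was lowest for Slc22a29 (0.734) and highest for Slco1a1 (0.68), and FLO replicate 1 was highest for Slc22a12 (0.637).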

How the results depend on the processing

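Of 644 values of single members under the alternatives, 590 stayed in the same direction and on the same side of the limits, 45 lost the call, 1 gained it (Slco4a1, 1.51, scaled by total counts) and 8, all uncalled, changed sign. The lost calls were those of Slco1a1 (11 of 19 alternatives), Slc22a4 (10), Abcb1a (10), Slc22a21 (7), Abcc5 (3), Slco2a1 (2), Abcb6 (1) and Abcc10 (1). Scaled by total counts, the median log2 fold change was 0.29 in the uptake and 0.24 in the ABC families, where that of all genes was 0.20, and Abcg2 stood at 0.16. At an adjusted p of 0.05 or less without a fold limit 6994 genes were called, with 10 ABC members higher; with a fold limit of 1, 1697 genes were called, with 2 ABC members higher and 5 lower. DESeq2 called 4655 genes, 3956 of them shared with edgeR. The median of the plasma membrane pumps alone was 0.16. Leaving out single libraries, 3 to 6 uptake members were called higher, 3 of them without fibrotic replicate 1, 2 or 6 or FLO replicate 3 or 6; the ABC median ran from 0.028 to 0.11, the uptake median from -0.02 (without FLO replicate 3) to 0.22, Abcg2 from -0.053 (without FLO replicate 3) to 0.0072 (without fibrotic replicate 6; 0.0055 without FLO replicate 5), Slc22a5 from -0.023 (without FLO replicate 3) to 0.19 (-0.01 without fibrotic replicate 4) and Slc22a7 from -0.14 (without fibrotic replicate 6) to 0.22 (-0.06 without fibrotic replicate 1, -0.09 without FLO replicate 3). The cause of these shifts was not tested. Leaving out members that share over 10% of their 51-base stretches with another gene, chosen after seeing the data, left 4 uptake members called higher and 5 lower, and 5 and 9 ABC members.

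Same-numbered libraries did not deviate together (correlations -0.162 to 0.104, and 0 of 6 fibrotic libraries correlated best with their own number), so the numbers were not taken as pairs; with the replicate block 3780 genes were called, with 5 uptake and 5 ABC members higher and 6 and 10 lower, and Abcb1a (0.63, edgeR adjusted p = 0.0249) and Slc22a4 (0.89, edgeR adjusted p = 0.0146) were not called. Depth limits the members under about 1 CPM most, among them Slco1a1, Slco4a1, Slc22a12 and Slc22a21 in FLO.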
